A study of Mus musculus with 36 samples.

Results

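Gene expression was compared between 8-cell and 2-cell mouse embryos labelled Ctrl, across all genes. The libraries were chosen by their treatment and stage labels, 6 Ctrl 8C and 7 Ctrl 2C, which makes 13 of the 36 libraries in the series. Each library was made from a pool of 4 to 5 injected embryos with SMART-seq v4, a kit that copies and amplifies polyadenylated RNA from very small inputs. The series' title concerns LINE-1, a family of retrotransposons, after fertilisation. Ctrl 8C embryos were injected and collected at the 8-cell stage, and Ctrl 2C embryos were injected and collected at the 2-cell stage. The other groups compared here were NI 8C, with 6 libraries, and NI 2C, with 4. The remaining libraries of the series, labelled KRAB 2C and VP64 8C, were not compared. They entered the fit of all 36 libraries, which set the filter and the estimate of spread behind each p-value. The labels give tissue (embryo), stage and treatment code for all of them, and they state neither a strain nor what the Ctrl embryos received, nor what NI stands for. They name no separate cultures or animals, so a p-value speaks only to how far the pools varied, and part of that variation may be technical. In a pool, fewer cells with a transcript and less of the transcript per cell cannot be told apart.

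A mouse egg stores messenger RNA and protein made during oocyte growth, and the first cleavages run on this maternal supply. Most maternal messages are deadenylated and destroyed around the 2-cell stage, while the embryo's own genome is switched on in a minor wave in the zygote and a major wave in the 2-cell embryo. A transient set of genes, among them the Zscan4 cluster, is transcribed only briefly in 2-cell embryos. By the 8-cell stage the embryo makes its own ribosomes and mitochondrial proteins and prepares for compaction, when cells flatten against each other and acquire polarity.

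Levels are given as CPM, the counts of a gene per 1000000 of its library's TMM-scaled total. They are relative to the other genes of a library, so a rise or fall is no change of amount per embryo. Because the kit copies polyadenylated RNA, loss of the poly(A) tail and loss of the RNA cannot be told apart. Where 3 values stand together they are the lowest, the median and the highest library of a stage, with n = 6 at the 8-cell and n = 7 at the 2-cell stage. Changes are log2 fold changes of 8-cell over 2-cell embryos from edgeR with their SE, so a positive value means higher at the 8-cell stage, and a gene counts as changed at an adjusted p under 0.05. A second log2 fold change in parentheses is the value without the library or libraries named there, given where it moved by more than 1.5-fold. Where several moved it, the largest move in each direction is given, and where no count remained in a stage no value is given.

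The 8-cell libraries resembled each other more than the 2-cell libraries did. Total counts ran from 1669780 to 7063757 at the 8-cell stage and from 1043751 to 10035078 at the 2-cell stage. The median correlation of a library with the others of its stage (Pearson r of log2(CPM + 1) over tested genes) was 0.90 to 0.94 in 5 of the 8-cell libraries and 0.82 in 8C library 6. It was 0.67 to 0.84 in the 2-cell libraries. The 2-cell libraries were also unequally distant from the 8-cell stage, with a median r against the 8-cell libraries of 0.36 to 0.39 in libraries 1, 5 and 7, and of 0.59, 0.61, 0.64 and 0.71 in libraries 3, 6, 2 and 4. Summed transcripts of the egg's subcortical maternal complex, mostly those of its member Zbed3, were lower in 2-cell libraries 2, 4 and 6, at 5109, 2546 and 1202 CPM. In libraries 1, 3, 5 and 7 they stood at 22445, 26363, 33756 and 33002 CPM. The same division was seen for Pabpc1l, which encodes an oocyte poly(A)-binding protein, at 5.66, 2.56 and 2.94 CPM in the first set and at 202, 394, 498 and 649.5 CPM in the second.

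**Figure D1:**
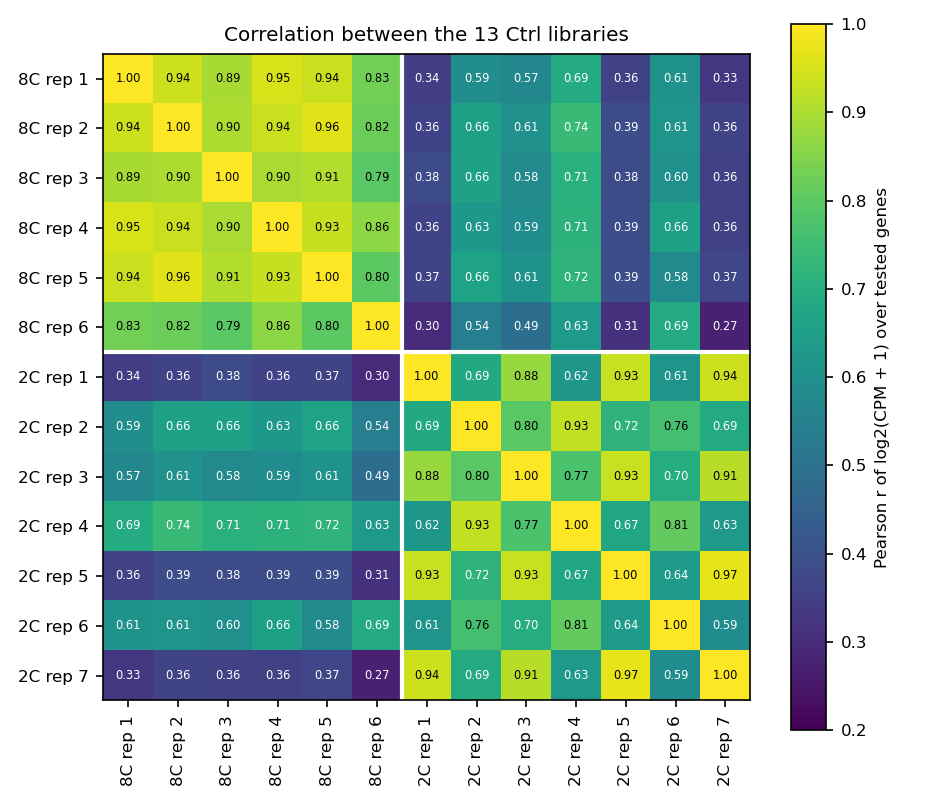
Pearson correlation of log2(CPM + 1) over the 13158 tested genes for every pair of the 13 Ctrl libraries, with 8C libraries first and 2C libraries after them; white lines separate the stages. The 8C block is uniform apart from library 6, and the 2C libraries 1, 5 and 7 lie farthest from the 8C block.

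Besides this spread, 3 libraries stood apart, 8C library 6 and 2C libraries 3 and 6, and they are marked beside the values they touch. In 8C library 6 the autophagy gene Map1lc3b took 6.05% of all counts, and this library had the fewest genes detected, 8665 at a depth of 1000000 counts. In 2C library 3, 32 genes that were under 5% of their 8-cell mean in the other 2-cell libraries stood at a median of 16.7% of it (interquartile range 12.2 to 21.8), and 30 of them exceeded 5%. By the same measure 2C library 6 had 7 genes, 5 of them over 5%. These genes were chosen for being low in the other 2-cell libraries, and raised genes of library 3 leave the sets of the others, so the numbers describe each library and do not compare them. Whether RNA from 8-cell embryos contributed to 2C library 3 was not tested.

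Fewer genes were detected in 8-cell embryos. At 1000000 counts, 10483 ± 1068 genes were detected at the 8-cell stage (SD, n = 6) and 12959 ± 694 at the 2-cell stage (SD, n = 7). The highest 8-cell library, with 11410 genes, was below the lowest 2-cell library, with 11956 (exact permutation test over 1716 splits, two-sided, p = 0.0012, the smallest this design allows). The 100 most abundant genes took 35.0% ± 7.71 of counts at the 8-cell stage and 34.5% ± 8.76 at the 2-cell stage, a difference of 0.46 percentage points within the spread of either stage (exact permutation p = 0.91).

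Most genes that could be tested differed between the stages. Of 13158 tested genes, 8091 changed (61.5%), 2956 of them higher (22.5%) and 5135 lower (39.0%) in 8-cell embryos. Falls were larger than rises: the called-lower genes had a median log2 fold change of -3.64, with 1150 of them past 64-fold, and the called-higher genes a median of 2.30, with 16 past 64-fold. The median of all tested genes was -0.51, and -0.70 with RLE or DESeq2 size factors. In 8-cell embryos the called-higher genes took 63.6% to 71.0% of a library's counts, against 7.48% to 27.5% in 2-cell embryos, and the called-lower genes took 2.51% to 6.36% in 8-cell embryos, against 34.1% to 74.7% in 2-cell embryos. All 6 8-cell libraries lay above all 7 2-cell libraries for 935 genes (7.11% of those tested) and below them for 2281 (17.3%). These shares were computed in the libraries that gave the calls, and they describe the turnover without testing it. Counts within a gene list stand against 22.5% higher and 39.0% lower over all tested genes.

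Genes with no count at one stage were mostly absent from the 8-cell libraries. At a mean of at least 1 CPM in the other stage, 794 genes had no count in any 8-cell library, and 31 had none in any 2-cell library. At a mean of at least 10 CPM these numbers were 152 and 0. Depth was not matched here: total counts averaged 4361290 over 6 8-cell libraries and 5729669 over 7 2-cell libraries. Absence from all libraries was therefore harder to reach at the 2-cell stage. A count in a single library also removes a gene, as for Rhox5 in 2C library 3. With 3 counts over the group as the floor, the 152 genes were at least 71.9-fold to at least 2669-fold lower in 8-cell embryos. Among them were Efcab6 (chromosome 15, 83866712 to 84065379 in GRCm38), an EF-hand protein gene, B4galt4, a galactosyltransferase gene, Plxna4, a semaphorin receptor gene, and Mmp2, which encodes a secreted matrix metalloprotease. The 2-cell libraries held 20.5, 222 and 372 CPM of Efcab6, 20.1, 221 and 335 CPM of B4galt4, 8.12, 189 and 310.2 CPM of Plxna4 and 25.6, 158 and 229.5 CPM of Mmp2. All 4 were counted in every 2-cell library, and their bounds were at least 1562-fold, 1559-fold, 1295-fold and 1131-fold lower. Genes of differentiated tissues occurred in this set, such as Th, the tyrosine hydroxylase of catecholamine synthesis, with 15.7, 82.7 and 172 CPM in 2-cell libraries and a bound of 681-fold, and Selp, the P-selectin of platelets and endothelium, with 13.2, 88.9 and 146 CPM and a bound of 688-fold. Of the 31 genes with no count at the 2-cell stage, Abcc9, a subunit of ATP-sensitive potassium channels, was counted in every 8-cell library, at 0.153, 2.94 and 8.37 CPM.

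Several of the most abundant transcripts differed between the stages. An exception was Rn45s, the precursor of ribosomal RNA, at 249, 17259 and 45544 CPM in 8C and 2229, 22829 and 34935 CPM in 2C libraries, which was not called (0.16 ± 0.86) and was the most abundant gene in 8C libraries 1, 2 and 5. Its share ran from 0.0125% to 3.42% of counts in 8C and from 0.176% to 3.93% in 2C libraries, and its part in the other values was not tested. Ccdc82 (chromosome 9, 13246955 to 13292520 in GRCm38) was the largest in the 2-cell libraries. It stood at 938, 3309 and 7435 CPM in the 8-cell libraries, against 37093, 65752 and 248621 CPM in the 2-cell libraries. The change was -4.62 ± 0.68. Zbed3, a member of the subcortical maternal complex, held 4.13, 8.51 and 21.0 CPM in 8-cell libraries, against 778, 19178 and 27843 CPM in 2-cell libraries (-10.41 ± 1.06; adjusted p = 3.6e-10). Spin1, a spindle-associated histone reader of the oocyte, held 35.4, 77.3 and 241 CPM in 8C and 3458, 10761 and 21637 CPM in 2C libraries (-6.85 ± 0.67, with -7.57 without the 3 libraries). In the opposite direction, Timd2 (chromosome 11, 46668960 to 46707061 in GRCm38), a surface receptor for ferritin, held 4787, 12309.5 and 46092 CPM in 8-cell libraries and 37.6, 594 and 1664 CPM in 2-cell libraries (4.78 ± 0.83). Map1lc3b, which encodes the LC3B protein of autophagosome membranes, stood at 6783, 12883 and 120516 CPM in 8C and 146, 984 and 7408 CPM in 2C libraries. One 2-cell value, that of library 6, exceeded the lowest 8-cell value, and the change was 4.06 ± 0.83 (2.75 without 8C library 6 and 5.08 without 2C library 6). Set, a histone chaperone and inhibitor of protein phosphatase PP2A, rose, with 3227, 5537 and 26050.2 CPM in 8C and 59.0, 759 and 909 CPM in 2C libraries (4.05 ± 0.66, with 3.30 without 8C library 6). Map1lc3b and Rn45s overlapped between the stages, and the other 5 genes given here by level did not.

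The largest rises among genes with a mean of at least 10 CPM at either stage were of modest level. Rhox5 passed that limit through 8C library 6: its 8-cell mean was 53.6 CPM, and the next highest 8C library held 16.99 CPM. Rhox5 (chromosome X, 37804842 to 37808876 in GRCm38), a homeobox gene of the X-linked reproductive cluster, stood at 4.71, 8.84 and 277 CPM in 8-cell libraries and had no count in 6 of the 7 2-cell libraries, with 1.06 CPM in 2C library 3 (7.91 ± 1.34, with 5.36 without 8C library 6, and no 2-cell count without 2C library 3). Mylpf, a myosin light chain gene of fast muscle, stood at 60.4, 139 and 1216 CPM in 8C and 0.271, 2.99 and 15.7 CPM in 2C libraries (5.79 ± 0.87, with 4.55 without 8C library 6). Ly6a, which encodes the Sca-1 surface antigen, stood at 31.1, 119 and 492 CPM in 8C and 0.427, 1.31 and 12.9 CPM in 2C libraries (5.68 ± 0.72, with 6.48 without 2C library 3 and 5.09 without 8C library 1). Fbp2, a gluconeogenic fructose bisphosphatase, was the most abundant of the 10 largest rises by its 8-cell median, at 159, 349 and 648 CPM in 8C and 1.13, 4.20 and 31.2 CPM in 2C libraries (5.56 ± 0.63, with 6.57 without the 3 libraries). Rhox5, Mylpf, Ly6a and Fbp2 did not overlap between the stages.

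**Figure D2:**
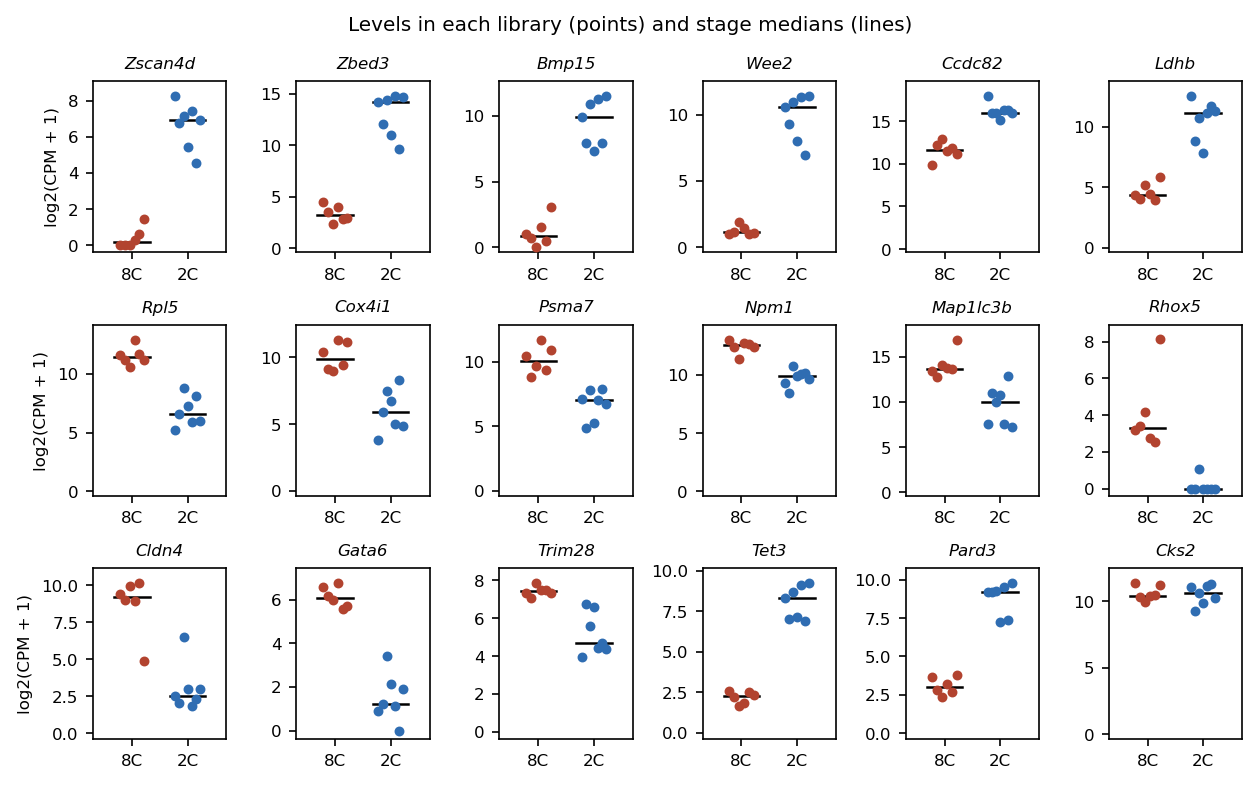
Levels of 18 genes as log2(CPM + 1) in each of the 6 Ctrl 8C (left, red) and 7 Ctrl 2C libraries (right, blue); each point is 1 library and the line is the stage median. The maternal genes Zbed3, Bmp15 and Wee2 spread widely among 2C libraries and are low in all 8C libraries, and Cks2 lies at one level in both stages.

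The maternal programme was reduced across its parts. Of 10 genes of the subcortical maternal complex and the cytoplasmic lattices, the protein assemblies beneath the egg membrane that the first cleavages need, 9 fell and 1 rose, with a median of -5.00. Their summed level was 243, 727 and 1595 CPM in 8-cell libraries and 1202, 22445 and 33756 CPM in 2-cell libraries, and these sums overlapped. Most of the 8-cell sum was Khdc3, the member that rose. Most of the 2-cell sum was Zbed3, at 778, 19178 and 27843 CPM. Nlrp14 and Nlrp4f, NLR-family genes of the oocyte, changed by -7.91 and -9.49 on the log2 scale and so fell. The exception was Khdc3 (chromosome 9, 73101836 to 73104438 in GRCm38), a member of the complex that safeguards genome stability in embryos, at 160.0, 643 and 1509 CPM in 8-cell libraries and 2.94, 42.3 and 95.3 CPM in 2-cell libraries. Khdc3 rose by 4.19 ± 0.62. Among 16 genes of the egg coat, egg surface and oocyte-secreted factors, 14 fell and 1 rose, with a median of -7.40. Bmp15, a growth factor the oocyte secretes to its follicle cells, stood at 0, 0.806 and 7.43 CPM in 8C and 157, 948 and 2911 CPM in 2C libraries (-9.57 ± 1.11, with -10.79 without the 3 libraries). Cd9, the tetraspanin that sperm fusion requires, was again the exception, at 263, 1137 and 1936 CPM in 8C and 40.2, 77.2 and 191 CPM in 2C libraries (3.44 ± 0.56). Khdc3, Bmp15 and Cd9 did not overlap between the stages.

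Machinery that stores, translates and removes maternal messages changed unequally. Of 19 genes of oocyte mRNA storage and translation, 15 fell and 1 rose (median -3.91). Dazl, a germ-cell RNA-binding protein that promotes translation of maternal messages, stood at 0.153, 6.92 and 8.97 CPM in 8C and 40.6, 454 and 871 CPM in 2C libraries (-6.08 ± 0.83). Eif4enif1, which encodes the eIF4E transporter that represses stored messages, stood at 3.98, 14.7 and 27.3 CPM in 8C and 80.5, 273 and 637 CPM in 2C libraries (-4.38 ± 0.50). In the larger list of deadenylation and mRNA decay, 20 of 57 genes fell and 12 rose (median -0.42), close to the median of all genes. Among the genes of the CCR4-NOT deadenylase that fell, Btg4, the adaptor that recruits it to maternal messages, stood at 1.13, 5.75 and 9.95 CPM in 8C and 439.5, 4598 and 6941 CPM in 2C libraries (-9.30 ± 0.93), and the deadenylases Cnot7 and Cnot6l fell (-3.90 for Cnot7 and -5.49 for Cnot6l). Exosc7, a core subunit of the RNA exosome, rose (3.77 ± 0.59, with 3.15 without 8C library 6), as did Ythdf2, a reader of N6-methyladenosine that sends messages to decay (1.48 ± 0.49), although not without the 3 libraries that stood apart (adjusted p = 0.059 in edgeR). Dazl, Eif4enif1 and Btg4 did not overlap between the stages.

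Most tested oocyte-enriched members of duplicated gene families fell. Of 24 oocyte members, 22 were tested, 18 fell and 1 rose, and of the counterparts 24 were tested, 5 fell and 8 rose. The pairs were compared as levels per kilobase of exon, in mean CPM per kb. Pabpc1l had 0.0576 CPM per kb in 8C and 92.0 in 2C libraries, and its somatic counterpart Pabpc1 had 62.1 CPM per kb in 8C and 10.3 in 2C libraries. Pabpc1 was the higher of the pair in every 8C library and in 2C libraries 2, 4 and 6, and Pabpc1l was the higher in 2C libraries 1, 3, 5 and 7. The oocyte cap-binding protein gene Eif4e1b had 0.0605 CPM per kb in 8C and 73.2 in 2C libraries, and its counterpart Eif4e, not called, had 350.3 CPM per kb in 8C and 160.0 in 2C libraries. The cell-cycle kinase Wee2, which holds the oocyte in meiotic arrest, had 0.463 CPM per kb in 8C and 446 in 2C libraries, and its mitotic relative Wee1, not called, had 6.91 CPM per kb in 8C and 3.40 in 2C libraries. Nucleoplasmin Npm2, which decondenses sperm chromatin, had 23.8 CPM per kb in 8C and 247 in 2C libraries, and nucleophosmin Npm1 of the nucleolus had 2194 CPM per kb in 8C and 359.8 in 2C libraries. Npm2 fell and Npm1 rose (2.61 ± 0.42). The methylcytosine oxidase Tet3 of the zygote had 0.221 CPM per kb in 8C and 19.5 in 2C libraries, and Tet1, the form of pluripotent cells, had 1.86 CPM per kb in 8C and 1.02 in 2C libraries, with changes of -6.46 ± 0.55 and 0.86 ± 0.38. The rise of Tet1 was at the threshold (adjusted p = 0.048 in edgeR) and was not called with RLE scaling (0.081) or DESeq2 (0.052), and leaving out 8C library 2, 4 or 6 or 2C library 1, 3, 5, 6 or 7 gave adjusted p-values of 0.065 to 0.16. In 3 of the pairs both members fell steeply: the apoptosis inhibitors Bcl2l10 (-9.71 ± 1.09, with -10.30 without the 3 libraries) and Bcl2l1 (-3.42 ± 0.67), the polyadenylation regulators Cpeb1 (-4.31 ± 0.68) and Cpeb4 (-3.67 ± 0.74), and the RNA-binding oocyte proteins Zar1 (-7.12 ± 0.74) and Zar1l (-2.70 ± 0.86, with -5.86 without the 3 libraries). Aurora kinase Aurkc, a germline form of Aurkb, was an exception, with 244 CPM per kb in 8C and 158 in 2C libraries, and neither kinase was called.

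**Figure D3:**
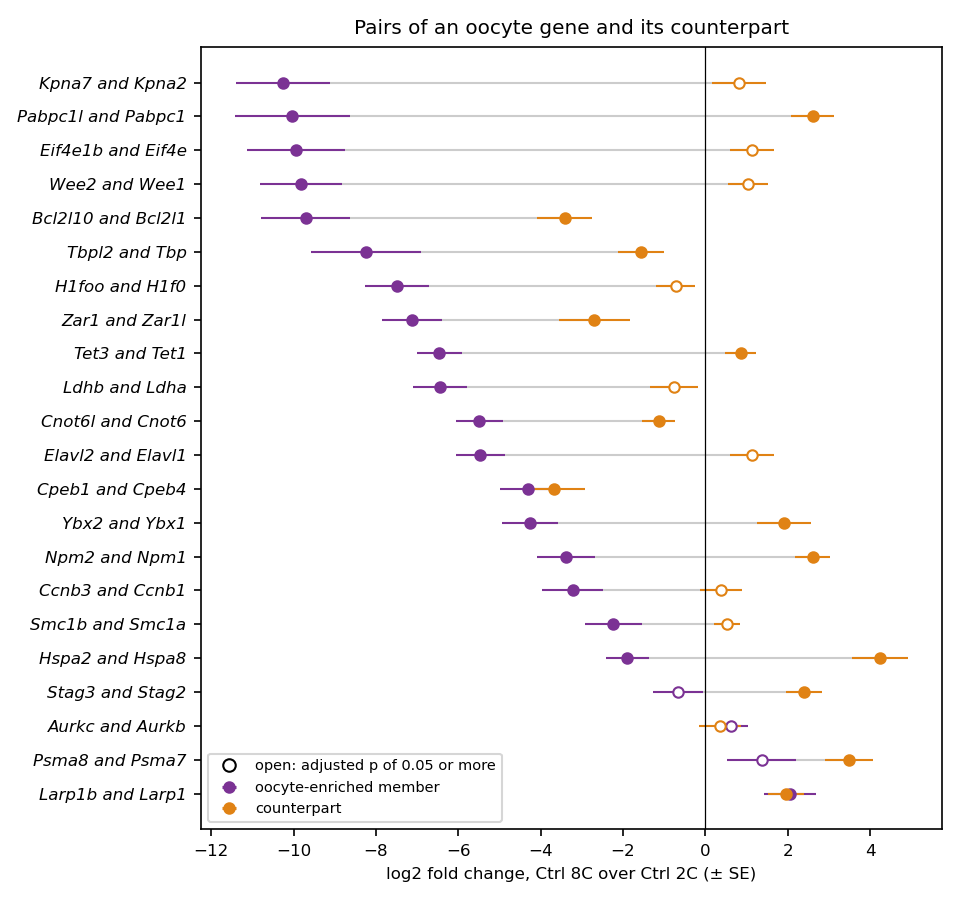
Log2 fold change of Ctrl 8C over Ctrl 2C with its SE for the 22 pairs in which both members were tested, the oocyte-enriched member in purple and its counterpart in orange; open points had an adjusted p of 0.05 or more. The oocyte members reach -10.25 for Kpna7 (-10.94 without 8C library 1), while the counterparts run from -3.67 for Cpeb4 to 4.24 for Hspa8.

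Genes switched on briefly in 2-cell embryos fell with the maternal ones. Of 46 such genes tested, 38 fell and 4 rose, with a median of -4.60. Their summed level was 6532, 8731 and 10377 CPM in 8-cell libraries and 41511, 69347 and 253742 CPM in 2-cell libraries. Ccdc82 alone held 938, 3309 and 7435 CPM in 8-cell libraries and 37093, 65752 and 248621 CPM in 2-cell libraries. The 2-cell sum was thus mostly Ccdc82 and says little of the other genes. Zscan4d, the telomere-protecting zinc finger gene whose transcripts mark the 2-cell stage, stood at 0, 0.120 and 1.71 CPM in 8C and 22.6, 121 and 307 CPM in 2C libraries (-8.46 ± 1.08, with -9.42 without the 3 libraries). Rfpl4b, a RING-finger-like gene, had no count at the 8-cell stage and 3.92, 17.1 and 72.6 CPM at the 2-cell stage, which is at least 217-fold lower. Gabarapl2, an autophagy gene related to LC3, rose instead, at 1881, 2639.9 and 5044 CPM in 8C and 24.8, 223 and 465 CPM in 2C libraries (3.62 ± 0.57), and so did Sp110, a nuclear body gene (1.63 ± 0.41). Among 52 genes of the Obox, Oog, Pramel and Tcl1 families, which are expanded in rodents and expressed in oocytes and early embryos, 44 fell and 6 rose (median -6.90). Obox5 (chromosome 7, 15750131 to 15759800 in GRCm38), an oocyte homeobox gene, stood at 0.754, 3.11 and 19.4 CPM in 8C and 367, 3017 and 4529.8 CPM in 2C libraries (-8.75 ± 0.90, with -9.74 without the 3 libraries). Tcl1, an activator of the AKT kinase, stood at 1.88, 7.49 and 14.6 CPM in 8C and 1049.8, 6141 and 15793 CPM in 2C libraries (-9.64 ± 0.94), and Tcl1b3 of the same cluster fell (-10.74, with -11.70 without 8C library 1). Reads of near-identical copies were divided between them by the counting program, so single values within the Zscan4, Obox, Oog and Tcl1b clusters are uncertain. Zscan4d, Gabarapl2, Obox5 and Tcl1 did not overlap between the stages.

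Promoter sequence of a few of these genes is shown so that the change of a gene can be read beside it: a pair of 2-cell genes, 2 oocyte genes, a claudin gene that rose and 2 ribosomal protein genes. The letters are RefSeq sequence of GRCm38.p6 (mm10), bases -120 to -21 from the annotated start, 5′ to 3′ on the gene's strand, and capitals mark the TATA motif TATAAA, the CCAAT motif and the GC motif GGGCGG on either strand. Over the 22862 genes with exactly 1 promoter in the table, CCAAT is held by 34.7% and GGGCGG by 32.4% of these promoters in the same 250 bases. Also searched, and not found in these 7 windows, were the ETS motif CCGGAAG, the E-box CACGTG, the homeodomain motif TAATTG, the paired-like homeodomain motif GGATTA and the YY1 motif. No marked motif overlaps another.
Zscan4c (chr7:11005625-11005724, plus strand): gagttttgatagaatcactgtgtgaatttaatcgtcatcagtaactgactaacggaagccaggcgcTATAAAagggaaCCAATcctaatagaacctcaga
Zscan4d (chr7:11166169-11166268, minus strand): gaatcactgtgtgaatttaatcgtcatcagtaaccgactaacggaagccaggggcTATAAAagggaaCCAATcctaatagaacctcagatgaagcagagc
Bmp15 (chrX:6320745-6320844, minus strand): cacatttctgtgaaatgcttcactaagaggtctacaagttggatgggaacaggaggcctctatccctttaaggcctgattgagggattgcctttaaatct
Btg4 (chr9:51115881-51115980, plus strand): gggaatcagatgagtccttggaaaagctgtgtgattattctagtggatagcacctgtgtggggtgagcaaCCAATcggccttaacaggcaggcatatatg
Cldn4 (chr5:134946955-134947054, minus strand): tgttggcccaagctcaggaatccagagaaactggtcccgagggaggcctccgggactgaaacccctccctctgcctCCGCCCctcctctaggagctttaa
Rplp0 (chr5:115559347-115559446, plus strand): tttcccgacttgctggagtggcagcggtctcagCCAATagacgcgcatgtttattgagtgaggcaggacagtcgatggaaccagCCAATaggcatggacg
Rpl13 (chr8:123102230-123102329, plus strand): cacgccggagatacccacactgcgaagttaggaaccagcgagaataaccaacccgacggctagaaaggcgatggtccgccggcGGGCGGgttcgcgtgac
Zscan4c and Zscan4d, which fell, carried TATAAA at -54 and -65 and differed at 2 of 90 aligned bases. Bmp15 and Btg4, which fell, and Cldn4, Rplp0 and Rpl13, which rose, had no TATAAA in the window. TATAAA stood in 13.6% of 22862 promoters in the table, counted in the 250 bases before the start. A comparison of motif content between gene lists is void, because only 7980 of the 13158 tested genes (60.6%) matched exactly 1 promoter by symbol, under the 80% needed. The rest had several promoters in the table or no matching symbol. A match is a run of letters and no evidence of binding.

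Protein synthesis genes rose together. All 78 tested genes of the cytosolic ribosome rose, with a median of 3.50, and for 64 of them the stages did not overlap (7.11% of all tested genes were above in this way). Their summed level was 41441, 92832 and 192732 CPM in 8-cell libraries and 1965, 6111 and 21906 CPM in 2-cell libraries. Rpl5 (chromosome 5, 107900502 to 107909005 in GRCm38), which carries 5S RNA into the large subunit, stood at 1492, 2764 and 7706 CPM in 8C and 36.8, 94.6 and 438 CPM in 2C libraries (4.42 ± 0.63, with 5.49 without the 3 libraries). Rplp0, a stalk protein of the large subunit, stood at 1332, 2815 and 5423 CPM in 8C and 283, 612 and 1091 CPM in 2C libraries (2.20 ± 0.44), and Rpl14, also of the large subunit, at 317, 769 and 1473 CPM in 8C and 3.99, 21.6 and 119.7 CPM in 2C libraries (4.34 ± 0.61). Of 55 translation factors, 36 rose and 6 fell (median 1.93). Eif2s2, the beta subunit of the factor that brings initiator tRNA, rose (2.81 ± 0.43), while Eef2k, the kinase that inhibits elongation factor 2, stood at 0, 1.11 and 4.57 CPM in 8C and 17.5, 283 and 1086 CPM in 2C libraries and fell (-8.61 ± 1.14, with -9.49 without the 3 libraries). Of 23 tRNA synthetases and their partners, 11 rose and 2 fell (median 1.08), with Eprs, which charges glutamate and proline, at 1.23 ± 0.37. Rpl5, Rplp0, Rpl14 and Eef2k did not overlap between the stages.

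Nucleolar, mitochondrial and proteasomal genes rose in the same embryos. Of 62 nucleolar ribosome-building genes, 41 rose and 0 fell (median 1.45). Npm1 stood at 2611, 6014 and 8350.4 CPM in 8C and 348, 947 and 1706 CPM in 2C libraries, and Wdr12, which helps process large-subunit RNA, rose by 2.86 ± 0.52. In the mitochondrial ribosome 62 of 77 rose and 0 fell (median 2.04), and among nuclear genes of oxidative phosphorylation 63 of 76 rose and 0 fell (median 2.35). Mrps18b, of the small mitochondrial subunit, stood at 316, 467 and 803 CPM in 8C and 34.5, 49.4 and 129 CPM in 2C libraries (3.05 ± 0.43), and Cox4i1, a subunit of cytochrome c oxidase, at 502, 1016 and 2592 CPM in 8C and 12.8, 59.8 and 323 CPM in 2C libraries (3.66 ± 0.65, with 4.60 without the 3 libraries). Of 48 proteasome genes, 37 rose and 4 fell (median 2.51). Psma7, an alpha subunit of the core particle, stood at 440.3, 1102 and 3374 CPM in 8C and 28.7, 129 and 236 CPM in 2C libraries (3.49 ± 0.58). Chaperones followed with 25 of 41 rising and 5 falling (median 1.63): Hsp90aa1 rose by 2.67 ± 0.47, whereas Hspa1a, the heat-inducible Hsp70 gene that is among the first the embryo transcribes, stood at 0, 0.747 and 6.03 CPM in 8C and 8.83, 28.0 and 41.7 CPM in 2C libraries and fell (-3.75 ± 0.85, with -4.56 without 8C library 5). Of 59 spliceosome genes 28 rose and 2 fell (median 1.11), with Snrpb, a core protein shared by the spliceosomal snRNPs, at 301, 808 and 1145 CPM in 8C and 13.4, 73.3 and 157 CPM in 2C libraries (3.34 ± 0.52, with 4.22 without the 3 libraries). Of 40 lysosome and autophagy genes 25 rose and 4 fell (median 1.71), including the cathepsins Ctsl (3.23 ± 0.58) and Ctsz (3.77 ± 0.59). Of the 19 snoRNA host genes, whose introns hold small nucleolar RNAs, 8 rose and 1 fell (median 1.57), among them Gas5 (2.55 ± 0.54, with 3.37 without 2C library 6). Npm1, Mrps18b, Cox4i1, Psma7, Hspa1a and Snrpb did not overlap between the stages.

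**Figure D4:**
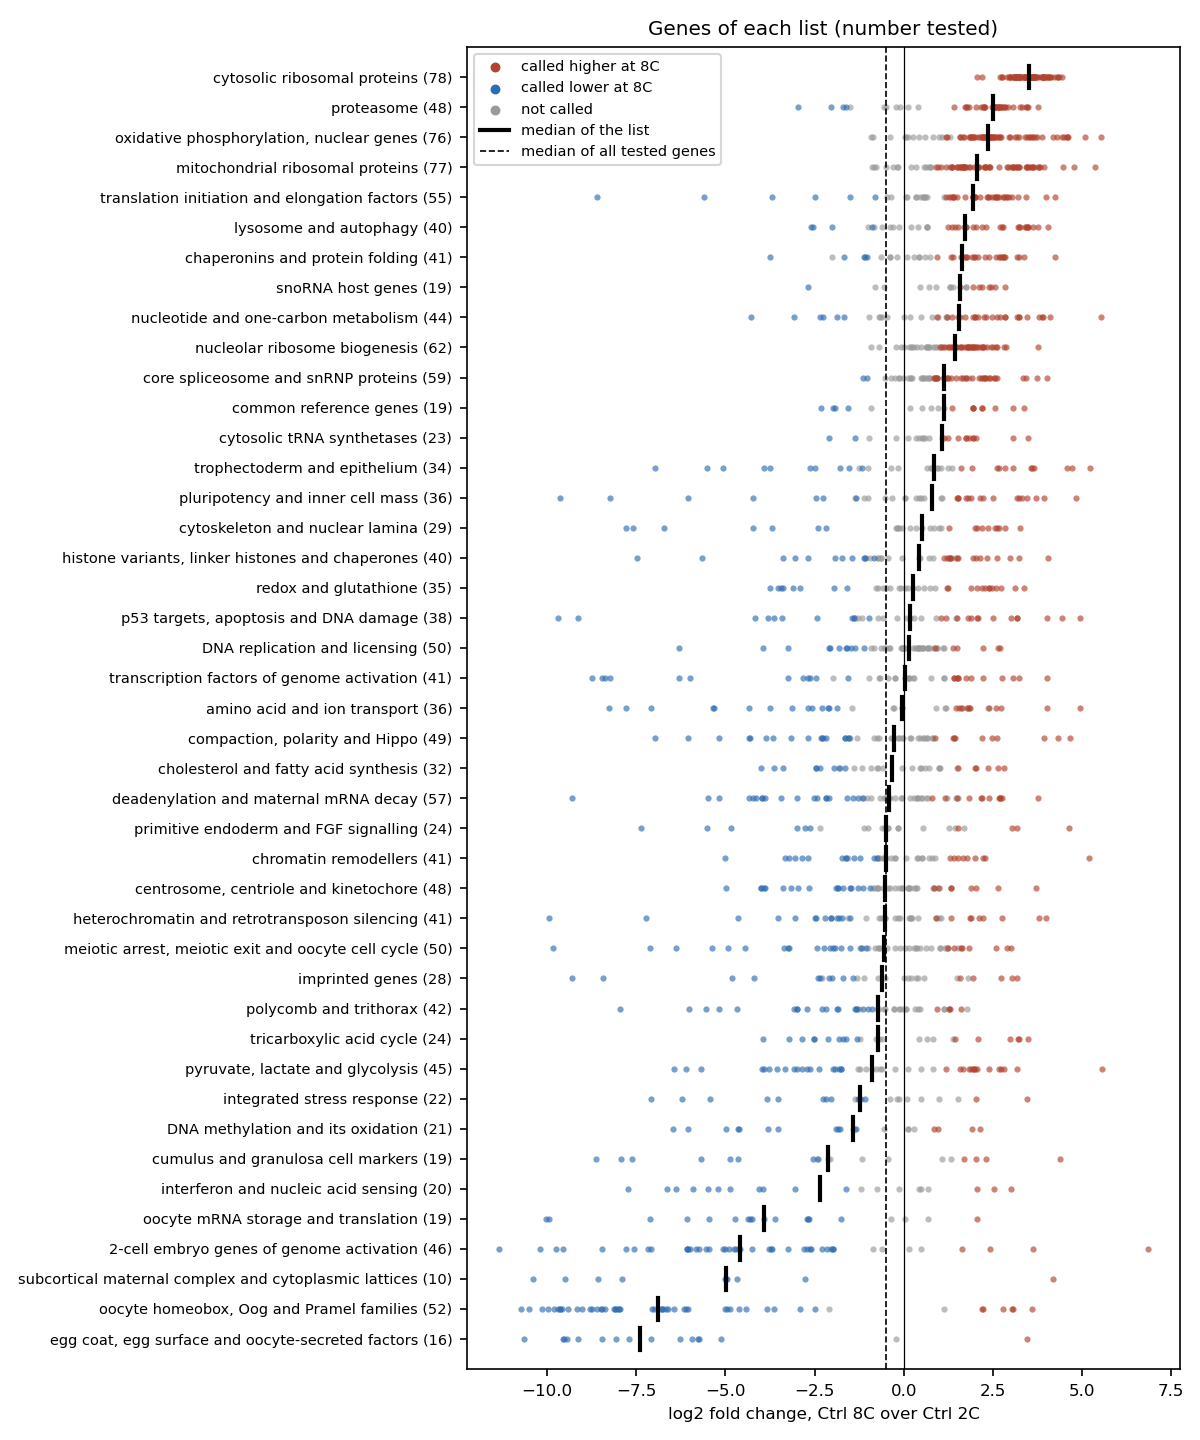
Log2 fold change of Ctrl 8C over Ctrl 2C for every tested gene of the 43 lists with at least 8 tested genes, with the number tested in parentheses; red genes rose, blue genes fell, grey genes were not called, the black bar is the list's median and the dashed line the median of all tested genes. The lists run from the cytosolic ribosome at the top, all red, to the egg coat at the bottom, nearly all blue.

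Metabolic lists differed: rises were more frequent than over all tested genes in nucleotide and one-carbon metabolism, and the lists of the tricarboxylic acid cycle and of transport had falls near the share of all tested genes. Early cleavage embryos live on pyruvate and lactate and take up glucose only later. Of 45 genes of pyruvate, lactate and glycolysis, 15 rose and 19 fell (median -0.88). Ldhb, the heart-type lactate dehydrogenase subunit stored in the egg, stood at 14.5, 20.004 and 57.7 CPM in 8C and 226, 2287 and 5970.4 CPM in 2C libraries (-6.45 ± 0.66), and G6pdx, which opens the pentose phosphate pathway, at 0.571, 12.3 and 25.7 CPM in 8C and 38.3, 1116 and 1799 CPM in 2C libraries (-6.10 ± 0.91). Mpc1, a subunit of the mitochondrial pyruvate carrier, rose (1.89 ± 0.47). In the tricarboxylic acid cycle, 6 of 24 rose and 10 fell (median -0.73). Malate dehydrogenase Mdh2 rose, at 566, 795 and 892 CPM in 8C and 71.9, 198 and 302 CPM in 2C libraries (2.07 ± 0.42), as did Idh3g, a subunit of NAD-dependent isocitrate dehydrogenase (2.98 ± 0.59), while citrate synthase Cs fell (-2.11 ± 0.49). Of 44 genes of nucleotide and one-carbon metabolism, 26 rose and 6 fell (median 1.55). Impdh2, the rate-limiting enzyme of guanine nucleotide synthesis, stood at 1022, 2609 and 7048 CPM in 8C and 14.3, 65.7 and 651 CPM in 2C libraries (3.90 ± 0.69, with 4.55 without the 3 libraries), and Bhmt, which remethylates homocysteine with betaine, at 318, 2848 and 4734 CPM in 8C and 0.812, 13.9 and 300.3 CPM in 2C libraries (5.54 ± 0.99, with 7.60 without the 3 libraries). Mthfd2, a mitochondrial folate enzyme, fell (-4.28 ± 0.50). Of 32 sterol genes 6 rose and 9 fell (median -0.32): Fdps, farnesyl diphosphate synthase, rose (2.64 ± 0.42) and Hmgcs1, which makes the substrate of HMG-CoA reductase, fell (-4.00 ± 0.54). Of 35 redox genes 13 rose and 8 fell (median 0.25), among them Ftl1, the ferritin light chain (2.47 ± 0.49), and Prdx2, a peroxiredoxin (-3.10 ± 0.42). Of 36 amino acid and ion transport genes 11 rose and 14 fell (median -0.05), and Slc3a2, the heavy chain shared by several amino acid exchangers, stood at 506, 843 and 1326 CPM in 8C and 205, 243 and 368 CPM in 2C libraries (1.77 ± 0.41). Ldhb, G6pdx, Mdh2, Impdh2, Bhmt and Slc3a2 did not overlap between the stages.

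Genes of the first lineages and of compaction moved in both directions, and the compaction list was near the shares of all tested genes. Of 34 genes of trophectoderm and epithelium, the outer lineage of the blastocyst, 12 rose and 10 fell (median 0.84). Cldn7, a tight junction claudin, stood at 94.3, 244 and 492 CPM in 8C and 0.570, 2.37 and 51.7 CPM in 2C libraries (4.71 ± 0.68, with 6.60 without the 3 libraries). Cldn4, another claudin, stood at 28.0, 592 and 1129 CPM in 8C and 2.57, 4.85 and 89.0 CPM in 2C libraries (5.22 ± 0.86, with 7.28 without the 3 libraries), and the stages overlapped by 1 library of each, 8C library 6 and 2C library 3. Id3, an inhibitor of bHLH factors, rose (4.57 ± 0.60, with 5.74 without the 3 libraries). Yap1, the transcriptional co-activator held back by Hippo signalling, fell, at 22.99, 35.5 and 66.9 CPM in 8C and 157, 275 and 291 CPM in 2C libraries (-2.62 ± 0.36). Of 36 pluripotency genes 16 rose and 7 fell (median 0.79), with Fbxo15, an F-box gene of pluripotent cells, at 1051, 2466 and 5647 CPM in 8C and 59.0, 162 and 837 CPM in 2C libraries (3.32 ± 0.61, with 3.90 without the 3 libraries), and Dppa3, which guards maternal methylation marks, at 2.12 ± 0.61 (1.22 without 8C library 6 and 2.92 without 2C library 6), a rise that missed the threshold without 8C library 6 (adjusted p = 0.062 in edgeR). Of 24 genes of primitive endoderm and FGF signalling 4 rose and 6 fell (median -0.49). Gata6, the transcription factor of primitive endoderm, stood at 47.1, 66.3 and 108 CPM in 8C and 0, 1.34 and 9.57 CPM in 2C libraries (4.62 ± 0.53, with 5.33 without the 3 libraries), and Spry4, a feedback inhibitor of FGF signalling, at 0.306, 4.76 and 10.9 CPM in 8C and 138, 956 and 1980.2 CPM in 2C libraries (-7.37 ± 0.79). Of 49 genes of compaction, polarity and Hippo 10 rose and 17 fell (median -0.26). Gja1, the gap junction protein connexin 43, stood at 109, 584 and 1231 CPM in 8C and 3.14, 19.6 and 74.8 CPM in 2C libraries (4.33 ± 0.76), whereas the polarity scaffolds Pard3 (-6.04 ± 0.49) and Pard6g (-6.96 ± 0.97, with no 8-cell count without 8C library 5) fell, and the polarity kinase Mark2 fell as well (-4.33 ± 0.64). Of 29 cytoskeleton and lamina genes 10 rose and 7 fell (median 0.51). Pfn1, an actin monomer-binding protein, stood at 809.9, 929 and 1385 CPM in 8C and 25.5, 73.0 and 239 CPM in 2C libraries (3.26 ± 0.51, with 3.92 without the 3 libraries), and Tubb3 and Tubg2, tubulin genes, fell (-7.58 for Tubb3 and -7.79 for Tubg2). Cldn4 overlapped between the stages, and the other 7 genes given here by level did not.

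Chromatin genes moved in both directions, and falls were more frequent than over all tested genes in the list of DNA methylation. In the polycomb list falls were near the share of all tested genes and rises were less frequent. The silencing and remodelling lists were near the shares of all tested genes. In the list of DNA methylation and its oxidation 11 of 21 fell and 4 rose (median -1.43). Uhrf1, which brings the maintenance methyltransferase to replicated DNA, stood at 3.38, 7.99 and 14.4 CPM in 8C and 43.2, 282 and 482 CPM in 2C libraries (-4.98 ± 0.61), and Zfp57, a zinc finger protein that protects imprints, at 3.72, 5.12 and 17.6 CPM in 8C and 25.5, 652 and 889 CPM in 2C libraries (-6.04 ± 0.75). Of 42 polycomb and trithorax genes 19 fell and 4 rose (median -0.72), with Phf1, an accessory protein of polycomb complex PRC2, at 0.612, 2.19 and 2.99 CPM in 8C and 58.9, 495 and 1146 CPM in 2C libraries (-7.96 ± 0.79), and its relative Mtf2 at 273, 702 and 1128 CPM in 8C and 79.3, 161 and 456 CPM in 2C libraries (1.60 ± 0.44). So of these PRC2 partners one was nearly absent and the other higher in 8-cell embryos. Of 41 genes of heterochromatin and retrotransposon silencing 14 fell and 9 rose (median -0.53). Trim28, the corepressor recruited by KRAB zinc finger proteins, stood at 134, 169 and 231 CPM in 8C and 14.3, 24.5 and 108 CPM in 2C libraries and rose (1.88 ± 0.39). Tdrd1, a tudor protein of the piRNA pathway, fell (-7.23 ± 1.03, with -9.41 without 8C library 5), and Piwil1, a PIWI protein, had no count at the 8-cell stage and 2.14, 34.2 and 69.3 CPM at the 2-cell stage, at least 265-fold lower. Of 40 histone and histone chaperone genes 15 rose and 11 fell (median 0.43). H1foo, the oocyte linker histone, stood at 0.377, 2.91 and 7.96 CPM in 8C and 55.5, 392 and 2092 CPM in 2C libraries (-7.48 ± 0.77, with -6.83 without 2C library 6). Of 41 remodelling genes 9 rose and 13 fell (median -0.50): Smarcd3, a BAF subunit, rose (5.20 ± 0.74, with 6.21 without the 3 libraries), Smarca2, a BAF ATPase, fell (-5.00 ± 0.66), and Ruvbl2, an ATPase of the INO80 complex, rose (2.28 ± 0.39). Of 41 transcription factors linked to genome activation 12 rose and 12 fell (median 0.03). Dppa4 rose, at 473, 674 and 874 CPM in 8C and 17.8, 129 and 279.8 CPM in 2C libraries (2.23 ± 0.52), and Klf17 fell, at 93.0, 256 and 619 CPM in 8C and 329.7, 1837 and 3299.5 CPM in 2C libraries (-2.47 ± 0.57). Mtf2 and Klf17 overlapped between the stages, and the other 7 genes given here by level did not.

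Many cell cycle genes were not called, and falls in the meiotic and centrosome lists were near the share of all tested genes. Of 50 DNA replication genes 33 were not called, 6 rose and 11 fell (median 0.14). Dbf4, the activator of the CDC7 kinase that fires origins, stood at 81.0, 99.99 and 172 CPM in 8C and 288, 465 and 853 CPM in 2C libraries (-2.09 ± 0.37), and Gins2, a subunit of the replicative helicase, fell (-3.95 ± 0.60). Of 50 genes of meiotic arrest, meiotic exit and the oocyte cell cycle 18 fell and 8 rose (median -0.56), with Cdk1, the mitotic kinase, at 317, 549 and 1207 CPM in 8C and 79.0, 227 and 448 CPM in 2C libraries (1.24 ± 0.46). The rise of Cdk1 missed the threshold without 8C library 1 or without 2C library 1, 5 or 7 (adjusted p in edgeR of 0.057 to 0.087). Of 48 genes of centrosome, centriole and kinetochore 18 fell and 8 rose (median -0.51). Plk4, the master kinase of centriole duplication, stood at 5.97, 18.5 and 40.5 CPM in 8C and 72.6, 357 and 479.8 CPM in 2C libraries (-3.88 ± 0.49), and the kinetochore subunit Nuf2 fell (-4.98 ± 0.69). Of 38 genes of p53, apoptosis and DNA damage 14 rose and 10 fell (median 0.18). Mdm4, an inhibitor of p53, stood at 30.8, 67.2 and 129 CPM in 8C and 768, 1090.5 and 2323 CPM in 2C libraries (-4.17 ± 0.47), and the checkpoint kinase Chek1 at 17.1, 26.8 and 66.9 CPM in 8C and 159, 459 and 684 CPM in 2C libraries (-3.64 ± 0.47). Cdk1 overlapped between the stages, and the other 4 genes given here by level did not.

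Falls were more frequent than over all tested genes in the stress and interferon lists, and imprinted genes were near the shares of all tested genes. Of 22 genes of the integrated stress response 12 fell and 2 rose (median -1.23). Ppp1r15a, the phosphatase subunit that reverses it, stood at 5.71, 56.1 and 104 CPM in 8C and 149, 196 and 581 CPM in 2C libraries (-2.26 ± 0.47), and Slc7a11, the cystine importer, fell (-7.09 ± 0.75). Of 37 interferon and nucleic acid sensing genes in the table, 20 passed the filter on low counts, and 11 of these fell and 3 rose (median -2.34). Ifitm3, an antiviral membrane protein, stood at 0, 1.76 and 5.14 CPM in 8C and 26.9, 134 and 419 CPM in 2C libraries (-6.37 ± 0.83). Adar, which edits double-stranded RNA, fell (-3.06 ± 0.51). Of 44 imprinted genes 28 passed the filter, 5 rose and 10 fell (median -0.63). Igf2r (chromosome 17, 12682406 to 12769664 in GRCm38), the receptor that clears insulin-like growth factor 2, stood at 80.2, 117 and 201 CPM in 8C and 0.856, 14.7 and 30.8 CPM in 2C libraries (3.02 ± 0.52), while Mest fell (-4.81 ± 0.85, with -5.59 without 8C library 5). Ppp1r15a, Ifitm3 and Igf2r did not overlap between the stages.

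Several genes often used as constant references changed. Of 19 such genes 9 rose and 4 fell (median 1.11). Hprt, a purine salvage enzyme, stood at 2483, 2876 and 5089.7 CPM in 8C and 244, 404 and 762 CPM in 2C libraries (3.06 ± 0.49), Ppia, cyclophilin A, at 1774, 3219 and 4209 CPM in 8C and 62.5, 177 and 614 CPM in 2C libraries (3.38 ± 0.49, with 4.01 without the 3 libraries), and Actb, beta-actin, at 139, 1443 and 2883 CPM in 8C and 32.1, 323 and 766 CPM in 2C libraries (2.19 ± 0.59). Among the most abundant genes whose 95% interval lay within a log2 change of 1 in either direction were Cks2, a subunit of cyclin-dependent kinases, at 965, 1374 and 2636 CPM in 8C and 611, 1595 and 2568 CPM in 2C libraries, and Zc3h15, a zinc finger gene, at 237, 291 and 586 CPM in 8C and 230.1, 330.0 and 459 CPM in 2C libraries. In all, 233 genes (1.77%) had such an interval, and the median half-width of the interval over all tested genes was 1.30. Actb, Cks2 and Zc3h15 overlapped between the stages, and the other 2 genes given here by level did not.

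Markers of other cells were low. The 36 listed cumulus and granulosa cell genes summed to 173 to 260 CPM in 8-cell libraries and 131 to 403 CPM in 2-cell libraries. Of the 19 that were tested, 4 rose and 8 fell (median -2.14). In a fit of the 13 Ctrl libraries alone 0 rose, 1 fell and the median was 1.12. That fit had its own filter, which kept 10779 genes, and its median covers only the list members kept. The 2 medians therefore need not be of the same genes. The granulosa genes Hsd3b1 and Inha had no count at the 8-cell stage and their highest 2-cell values, 74.8 and 40.0 CPM, in 2C library 7, while both were at 0 in 2C libraries 2 and 6. Without 2C library 7 the fall of Hsd3b1 was not called (adjusted p = 0.24 in edgeR, against 0.023 with it). Of 36 listed cumulus and granulosa genes, 6 had no count in any of the 13 libraries, and of 24 listed sperm genes 8 had none. The part of these cells in the changes of other genes was not tested. The 24 listed sperm genes summed to 3.37 to 10.1 CPM in 8-cell libraries and 12.3 to 46.6 CPM in 2-cell libraries. The 9 oviduct genes present in the counts summed to 7.78 to 20.6 CPM in 8-cell libraries and 3.92 to 11.4 CPM in 2-cell libraries. Among these, 5 sperm and 4 oviduct genes were tested.

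Gene length and change were related. Among the quintile of tested genes with the shortest span on the genome, up to 7.88 kb, 34.3% rose and 27.2% fell, and among the quintile with the longest span, over 69.5 kb, 9.13% rose and 61.4% fell. The median log2 fold changes were 0.42 in the shortest quintile and -2.26 in the longest. By the length of the longest transcript, 36.9% rose and 27.1% fell in the shortest quintile, and 11.1% rose and 51.4% fell in the longest. The genes that rose had a median span of 14.1 kb and 7 exons, those that fell 36.4 kb and 10 exons. Across 13033 genes, which share libraries and are not independent, Spearman's coefficient with the log2 fold change was -0.28 for span and -0.22 for transcript length. Within single libraries, the longest-span quintile took 4.85% to 6.25% of the summed CPM of tested genes at the 8-cell stage and 11.3% to 15.2% at the 2-cell stage. The shortest-span quintile took 28.5% to 37.9% at the 8-cell stage and 18.2% to 30.4% at the 2-cell stage, where only 2C library 6 reached the 8-cell range.

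**Figure D5:**
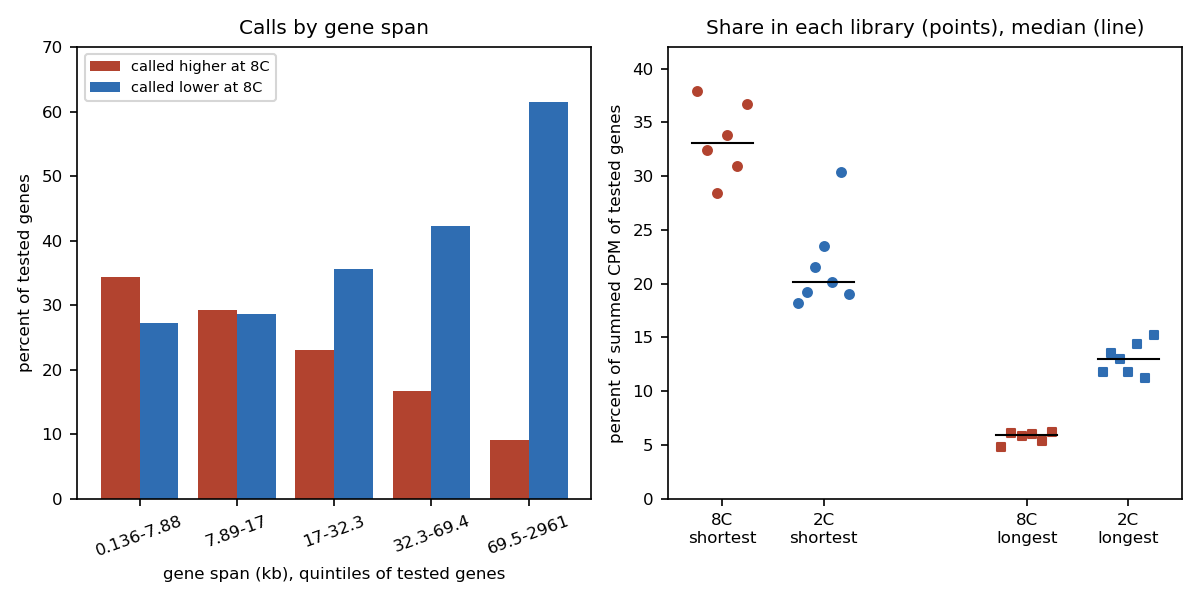
Left, percent of tested genes called higher (red) and lower (blue) at the 8C stage in quintiles of gene span in kb. Right, percent of the summed CPM of tested genes taken by the shortest-span and longest-span quintile in each 8C (red) and 2C (blue) library, with medians as lines. Falls outnumber rises by 61.4% to 9.13% in the longest quintile, and the stages do not overlap there.

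Chromosomes differed little in their medians. On every chromosome from 1 to 19 and X the median log2 fold change was below 0, from -0.15 on chromosome 17 to -0.88 on chromosome 1, and it was -0.61 on X. Gene families that share a name stem spread over a wider range. At the upper end, of 51 tested Rpl genes 49 rose and 0 fell (median 3.49). Among 46 Rps genes 34 rose and 5 fell (median 3.13), and those that fell lie outside the cytosolic ribosome list. Next came Mrpl, with 38 of 48 rising and 0 falling (median 2.07), and Mrps, with 24 of 29 rising and 0 falling (median 1.82). Cox genes followed, with 15 of 25 rising and 3 falling (median 1.71). Of 294 tested Zfp genes 19 rose and 124 fell (median -1.06), of 53 Usp deubiquitinase genes 4 rose and 33 fell (median -2.09), of 34 Cep centrosomal genes 2 rose and 22 fell (median -2.19), and of 21 Fbxw genes 2 rose and 16 fell (median -5.01).

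The same passage could be set beside that of NI embryos, which used other libraries. In NI, 6560 of the 13158 genes changed (49.9%). The difference of the stage change between Ctrl and NI passed the threshold for 0 genes in edgeR (0%), with 2679 (20.4%) at an unadjusted p under 0.05 and a smallest adjusted p of 0.0523. DESeq2 called 656. Leaving out 2C library 6 gave 1102 in edgeR, and leaving out 2C libraries 2 or 4 gave 84 or 265. The count of 0 thus changed with the method and with the libraries kept. Without the 3 libraries that stood apart it was 352. The genes with the smallest p of the difference included Antxr2, an anthrax toxin receptor, which had no count in Ctrl 8-cell libraries, against 21.6, 83.6 and 162 CPM in Ctrl 2-cell libraries, and whose log2 fold change in NI was -4.71 ± 0.68. Another was Nlrp4g, at 0, 0 and 0.571 CPM in Ctrl 8-cell and 1.96, 244 and 469.8 CPM in Ctrl 2-cell libraries, which is 3092-fold lower by summed counts (95% counting interval 856 to 25536), and its log2 fold change in NI was -3.39 ± 0.89. Among gene lists, the snoRNA hosts had 8 rises and 1 fall in Ctrl, against 0 rises and 6 falls in NI, with medians of 1.57 in Ctrl and -0.63 in NI. The cytosolic ribosome had 78 rises in Ctrl and 49 in NI, with medians of 3.50 in Ctrl and 2.08 in NI. The difference between Ctrl and NI was not tested for these lists.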

How the data were processed

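The RNA-seq table held expected counts, deposited by the authors for 23845 gene symbols in 36 libraries. Alignment with Bowtie2, quantification with RSEM and the genome build mm10 are named in the submitters' processing notes, with no version, role or gene annotation (not given in the sources used here). RSEM estimates how reads shared by several transcripts divide, so near-identical copies are uncertain, and the strand setting is not given, so overlapping antisense genes cannot be told apart. All columns were matched to samples by title (0 columns not used).

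Expected counts were rounded to whole numbers. edgeR 4.0.16 (limma 3.58.1, R 4.3.3) fitted a quasi-likelihood model with robust dispersion to all 36 libraries in 6 groups, with TMM scaling and filterByExpr (minimum count 10, minimum total 15), which left 13158 genes. Groups came from the treatment and stage labels, and the model had no further covariate because the labels give no batch. Calls used a Benjamini-Hochberg adjusted p under 0.05. The edgeR fit of the Ctrl stage difference was run on simulated counts with known changes. Few genes changed there, with rises and falls nearly balanced, whereas 61.5% of genes changed in these data and falls predominated. The simulation therefore cannot show how TMM scaling behaves under so wide and uneven a change. CPM are rounded counts per 1000000 of the TMM-scaled total. Genes detected at a fixed depth are the number expected in a random draw of 1000000 counts. Single library measures were compared with two-sided exact permutation tests over 1716 splits. No pair of replicates came within sampling noise (lowest chi-square per degree of freedom 26.6). Bounds for genes with no count used a floor of 3 counts over the group. Floors and intervals cover counting error only, since no molecular identifiers were stated and amplified reads are not independent molecules.

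Positions and lengths are from GENCODE vM21 (GRCm38), and promoters, 250 bases before to 50 after the start, from RefSeq (GRCm38.p6), with motifs counted in the 250 bases before it. The genes and lists were chosen with earlier results of these data known. Genes to name were taken by a fixed rule, and the text prints a selection of them. The rule covered the 10 largest rises and falls, the 15 most abundant genes per stage, genes absent at one stage, the most abundant and most changed called members of each list, both members of each pair, reference genes, the 10 smallest p-values of the difference between Ctrl and NI, and the 10 most abundant genes with an interval between -1 and 1. Zscan4c and Rpl13, shown with their promoters, lie outside the rule and were chosen after their values were seen. Alternatives were RLE scaling, DESeq2 1.42.0, no filter, a fit of the 13 Ctrl libraries alone, leaving out each library, and, chosen after seeing the data, leaving out the 3 libraries that stood apart.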

Additional observations from a re-analysis of the deposited data

Results flagged for a closer look

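In 32 of 172 sets of values, each the 6 8C or 7 2C libraries for 1 gene, gene list or library measure, a single library lay far from the others of its stage (Dixon's ratio above 0.625 for 6 libraries or 0.568 for 7). These limits give about 1 in 20 by chance only for normally distributed values. Gene levels entered as CPM without a log scale, where a single high library weighs most. Whether 32 of 172 exceeds chance therefore cannot be read from them. The sets also share libraries, so they are not independent. Of the 32 sets, 18 were in 8C and 14 in 2C libraries, and in each the library was the highest of its stage.

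Of these, 13 were in 8C library 6. The genes that rose and stood highest there were Map1lc3b, Mylpf, Pfn1, Rhox5, Set and Timd2, and those that fell and stood highest there were Bmp15, Chek1, Eef2k, Nlrp4g, Obox5, Spin1 and Zscan4d. Their values, each with the next highest 8C library, were Bmp15 (7.43 CPM, next 1.92), Chek1 (66.9 CPM, next 34.7), Eef2k (4.57 CPM, next 1.32), Map1lc3b (120516 CPM, next 17942), Mylpf (1216 CPM, next 239), Nlrp4g (0.571 CPM, next 0.188), Obox5 (19.4 CPM, next 4.80), Pfn1 (1385 CPM, next 995), Rhox5 (277 CPM, next 16.99), Set (26050.2 CPM, next 7320.3), Spin1 (241 CPM, next 92.6), Timd2 (46092 CPM, next 19699) and Zscan4d (1.71 CPM, next 0.565).

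In 2C library 3 there were 8, all of genes that rose: Bhmt (300.3 CPM, next 34.6), Cldn4 (89.0 CPM, next 6.97), Cldn7 (51.7 CPM, next 8.54), Fbp2 (31.2 CPM, next 6.85), Gata6 (9.57 CPM, next 3.42), Ly6a (12.9 CPM, next 4.20), Mrps18b (129 CPM, next 72.2) and Rhox5 (1.06 CPM, next 0), each with the next highest 2C library.

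The other 8C values were Cdk1 (1207 CPM, next 599) in 8C library 1, Gabarapl2 (5044 CPM, next 2902) in 8C library 1, Zfp57 (17.6 CPM, next 6.72) in 8C library 3, Rpl5 (7706 CPM, next 3374) in 8C library 4 and Pabpc1l (0.942 CPM, next 0) in 8C library 5. The other 2C values were Ccdc82 (248621 CPM, next 78827) in 2C library 1, the sum of the 2-cell genes, which includes Ccdc82 (253742 CPM, next 83979) in 2C library 1, Map1lc3b (7408 CPM, next 2107) in 2C library 6, Dbf4 (853 CPM, next 521) in 2C library 7, Hsd3b1 (74.8 CPM, next 1.28) in 2C library 7 and Inha (40.0 CPM, next 5.70) in 2C library 7.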

How the results depend on the processing

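The calls of the stage difference kept within 1.5 times of the 2956 higher and 5135 lower genes under every setting tried. The counts higher and lower were 2656 and 5466 with RLE scaling, 2817 and 5668 with DESeq2, 3259 and 6228 with no filter on low counts, and 2089 and 3787 with the 13 Ctrl libraries alone. Leaving out 1 Ctrl library gave 2489 to 3158 higher and 4779 to 5290 lower. Leaving out the 3 libraries that stood apart, an alternative chosen after seeing the data, gave 2941 and 4981, of which 2672 and 4828 were also called with all libraries. No gene was called in opposite directions under any of these settings. The difference between Ctrl and NI was less stable: from 0 genes it went to 656 with DESeq2, 2 with no filter, 352 without the 3 libraries, and 0 to 1102 when single libraries were left out. The cause was not tested. Genes detected were fewer at the 8-cell stage under every setting, and the share of the 1000 most abundant genes was 9.47 percentage points higher there (exact permutation p = 0.028), unlike that of the 100 most abundant. Of 2319 values of the 129 genes under other settings, 2297 kept their direction and side of the threshold and 22, in 5 genes, missed it. The list medians that changed sign were those of transport, sterol synthesis, genome activation factors, replication, p53 and the cumulus genes. Each median covers the list members that the fit in question kept. No paired analysis was possible because replicate numbers follow accession order only. Over tested genes, 95% intervals reached a median of 1.30 log2 units to either side, so smaller changes were often not detectable.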
